A study of Homo sapiens with 2 samples.

Results

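The unfolded protein response and the ATF4 response of MRC-5 cells, a line of human lung fibroblasts, were examined through 36 genes on the arrays of control siRNA and periostin siRNA. The genes were taken by name, as a list written with earlier results of these data known, and each was found through the RefSeq accession that the scanner files give for its probe. They were 36 of the 21743 genes named in this way on the array, and all 36 had a ratio between both arrays. By role they were 8 sensors and transcription factors, 14 chaperones and folding enzymes of the endoplasmic reticulum (ER), 6 genes of ER-associated degradation and 8 targets of ATF4.

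The study asked which genes of lung fibroblasts depend on periostin, a matricellular protein. Both samples were MRC-5 cells of the unmodified line, transfected with control siRNA or with periostin siRNA, the latter at 10 nM for 48 h. Total RNA of each culture was labelled with Cy3 and hybridised to 1 single-colour Agilent array. With 1 array per group no difference has a replicate check, no p-value was computed, and the periostin knockdown cannot be told apart from any other effect of the transfected oligonucleotide or from a difference between the cultures.

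As background, the ER reads the load of unfolded protein through the kinase and endonuclease IRE1 (ERN1), the kinase PERK (EIF2AK3) and the membrane-bound factor ATF6. IRE1 splices the XBP1 mRNA, ATF6 is cut to a soluble factor, and both raise chaperones and degradation genes. PERK phosphorylates the initiation factor eIF2α, which slows translation in general while the ATF4 mRNA is translated more, and ATF4 then raises genes of amino acid synthesis, amino acid transport and tRNA charging. Other kinases reach the same step from amino acid shortage, haem shortage or double-stranded RNA, so that ATF4 targets also belong to the integrated stress response. Fibroblasts secrete collagen and other matrix proteins and depend on this folding machinery. The array measures mRNA levels. Splicing of XBP1, cleavage of ATF6 and phosphorylation of eIF2α were not measured.

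Signals below are processed signals scaled to a common 75th percentile of 377 fluorescence units on each array. Ratios are log2 of periostin siRNA over control siRNA, so that a negative ratio means a lower signal with periostin siRNA. The error is the SD over spots for a probe printed 10 times, and for a probe printed once the error that the scanner software gives each spot, propagated to the ratio. It ranged from 0.20 to 0.21 over the single-spot members well above background on both arrays. Over the 197 probes that were printed 10 times and lay between the members' signal quartiles, the pooled SD between spots was 0.06. Neither error covers the difference between cultures. Signals of different probes are not read as relative amounts of mRNA. The marker sums below add signals of different probes and describe the array reading only.

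The periostin mRNA itself, POSTN, read 2638 in cells given control siRNA and 280 after knockdown (ratio -3.24, spot error 0.20). The labelled knockdown was therefore visible in its target. Each of the 8 fibroblast markers was detected on both arrays, with a summed scaled signal of 351191 and 316250, of which VIM gave 189263 and 174022. Single fibroblast markers went both ways, from COL1A1 at 1.46-fold lower to LUM at 1.78-fold higher with periostin siRNA. Of 5 epithelial markers 4 were well above background on both arrays, and all 4 were higher with periostin siRNA. EPCAM read 34.6 and 135 (3.90-fold), KRT19 167 and 342 (2.05-fold), SFTPC 33.8 and 53.3 (1.58-fold) and KRT18 3048 and 4265 (1.40-fold), and the defining marker CDH1 was not well above background on either array. The epithelial list summed to 3285 and 4797, most of it KRT18. The 3 endothelial markers summed to 124 and 128 without PECAM1 above background, and the 5 immune markers to 31.2 and 54.2. Of the immune markers PTPRC alone was well above background on both arrays, CD74 and CD3E with periostin siRNA only, and HLA-DRA and LAPTM5 on neither. The part of the epithelial signal in the results below was not tested, and in RNA of a whole culture fewer cells of a type cannot be told apart from less RNA per cell.

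Most members were lower with periostin siRNA. Of the 36 genes, 33 had a ratio below 0, against 45.5% of the 16052 genes measured (those with a bound on 1 array included), and 3 had a ratio above 0. The median ratio of the members was -0.54, against 0.06 over all measured genes. By more than 1.5-fold 14 members were lower and 0 higher, against 13.7% of all measured genes lower and 17.6% higher. By more than 2-fold 6 members were lower and 0 higher, against 6.42% lower and 7.97% higher. By more than 3-fold 3 members were lower, against 2.75% of all genes. The 6 members past 2-fold were CHAC1, ASNS, MANF, TRIB3, HSP90B1 and PDIA4. Under no scaling and under another background correction PDIA4 was within 2-fold, which left 5.

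The scatter between spots depends on signal, with a pooled SD of 0.12 over all 667 probes printed 10 times against the 0.06 given above. The median of the mean signals was 3386 over the members and 384 over all measured genes. Therefore the 3847 measured genes between the lower and upper quartile of the members' mean signal, 1050 and 7282, were taken as a background of like signal. Their median ratio was 0.03. A ratio below 0 was found in 46.6% of them, a signal lower by more than 1.5-fold in 10.7% and a signal lower by more than 2-fold in 3.85%. By construction part of the members lie outside these quartiles, with ASNS, TRIB3 and HSP90B1 above the upper one. Against the spot error, 28 of the 35 members measured on both arrays lay below 0 by more than their own error and 22 by more than 2 times that error. Above 0 by more than their own error lay 2 members, and 0 by more than 2 times that error. The same counts were not made over all measured genes, so no background share stands beside them.

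**Figure D1:**
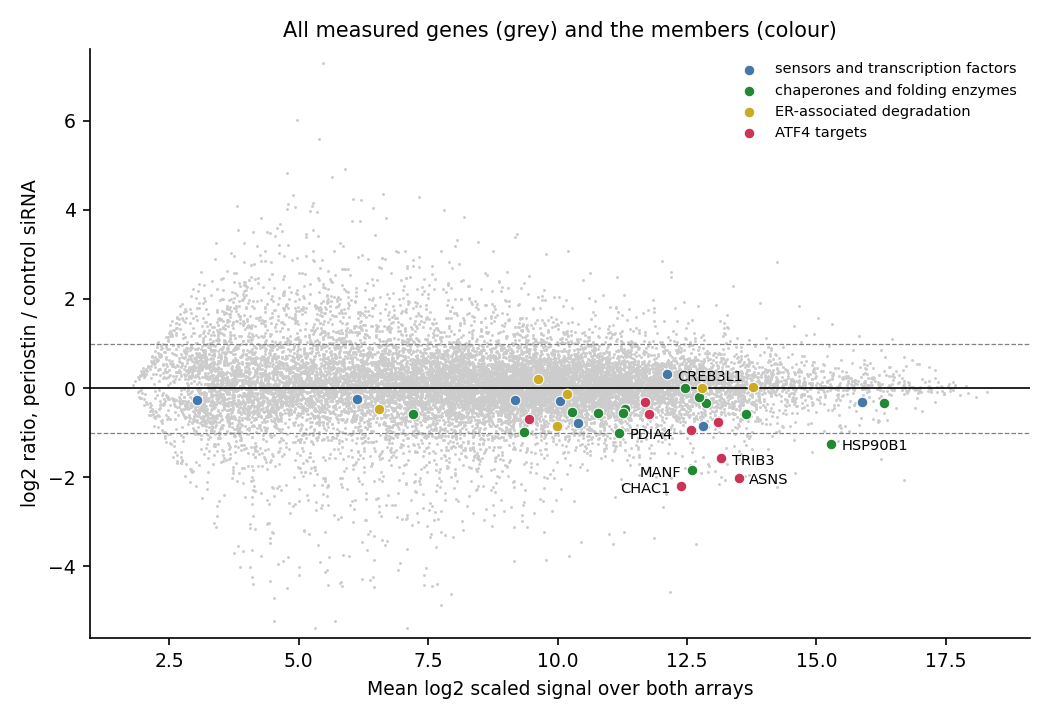
Each point is 1 gene, placed by its mean log2 scaled signal over both arrays (x axis) and its log2 ratio of periostin siRNA over control siRNA (y axis); grey points are the 16052 measured genes, coloured points the 36 members by role (ERN1 at its bound), and dashed lines mark 2-fold. The members lie mostly below 0, 6 of them below the lower dashed line and 0 above the upper one.

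By role the medians were -0.84 for the 8 ATF4 targets, -0.56 for the 14 chaperones and folding enzymes, -0.28 for the 8 sensors and transcription factors and -0.06 for the 6 degradation genes. All 8 ATF4 targets and all 14 chaperones had a ratio below 0, though that of the chaperone PDIA6 changed sign with the scaling. Among the degradation genes 4 were below 0, of which DERL3 changed sign with the scaling, and 2 were above. Ratios lower by more than 2 times the spot error were found in 8 of 8 ATF4 targets, 10 of 14 chaperones, 2 of 8 sensors and factors and 2 of 6 degradation genes. These counts do not hold all roles to the same bound. For DDIT4 and XBP1 the error was the SD over 10 spots (0.05 and 0.04), for the others the propagated error of about 0.20. DDIT4 thus passed at -0.32, while CALR, CRELD2 and ATF4 did not at -0.32, -0.34 and -0.32. The share of all measured genes past that bound was not counted. The roles overlapped widely in their ratios, and with 1 array per group the difference between roles was not tested.

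**Figure D2:**
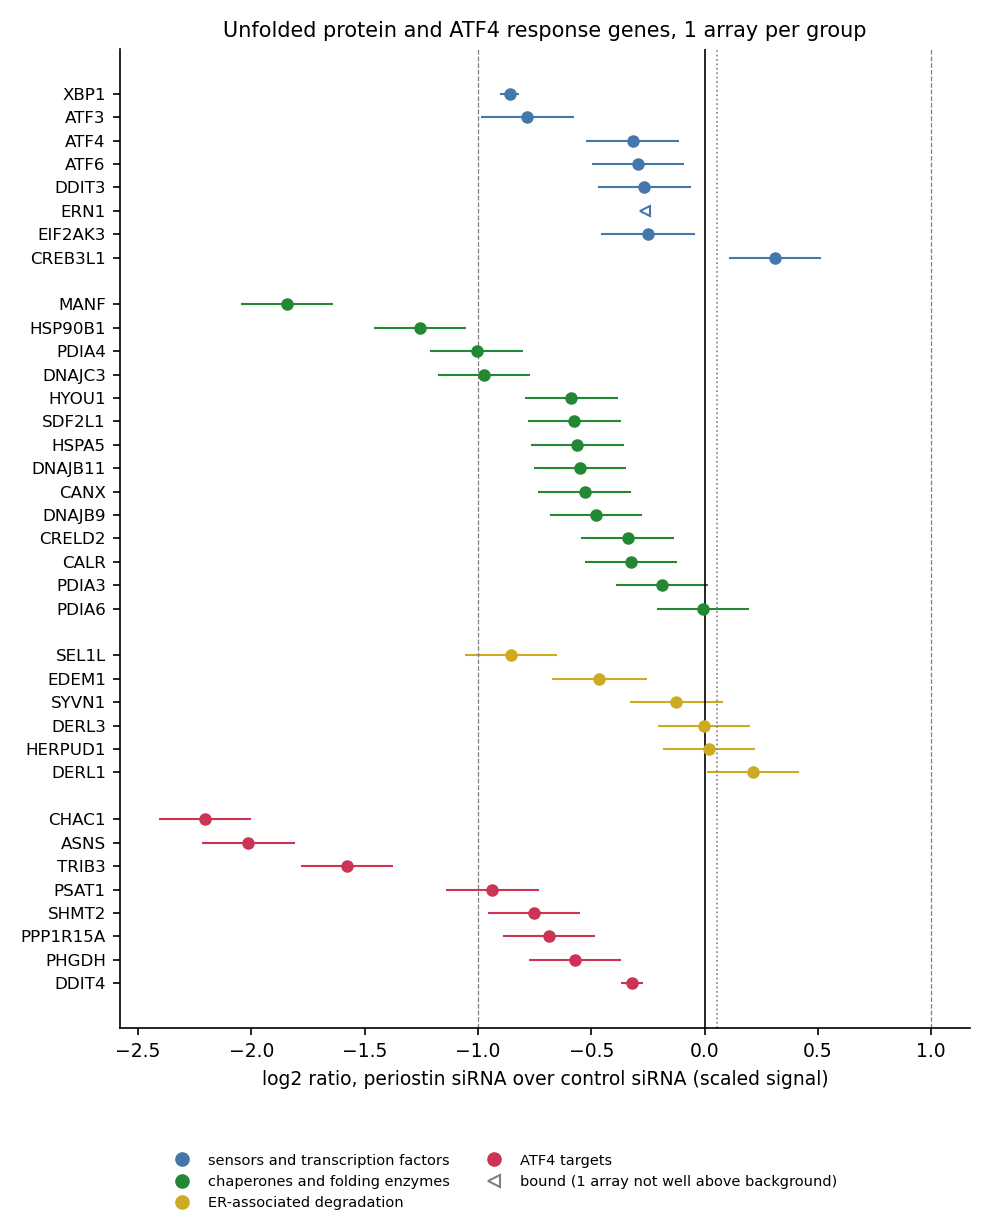
Log2 ratio of periostin siRNA over control siRNA (x axis) of each of the 36 members (y axis), grouped and coloured by role and ordered within a role; bars are the spot error (SD over 10 spots for XBP1 and DDIT4, propagated for the others), the open triangle is the bound for ERN1, the dotted line is the median of all measured genes and dashed lines mark 2-fold. CHAC1 has the lowest ratio at -2.20 and CREB3L1 the highest at 0.31; PDIA6, DERL3 and HERPUD1 sit at 0 within their error and change sign with the scaling.

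The ATF4 targets CHAC1 and ASNS held the lowest ratios of the members, followed by the chaperone MANF (-1.84) and then TRIB3. CHAC1, which breaks down glutathione, read 11425 with control siRNA and 2481 with periostin siRNA, 4.61-fold lower (ratio -2.20, spot error 0.20). A separate, dimmer CHAC1 probe read 945 and 205, with the same ratio of -2.20. ASNS, the enzyme that makes asparagine, read 23348 with control siRNA and 5787 with periostin siRNA, 4.03-fold lower (ratio -2.01, spot error 0.20). The pseudokinase TRIB3, which ATF4 and CHOP induce and which restrains both in turn, read 15818 and 5303, 2.98-fold lower (ratio -1.58, spot error 0.20). For these 3 genes the signal with periostin siRNA was 21.7%, 24.8% and 33.5% of that with control siRNA.

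The serine and glycine enzymes among the members were lower by less than 2-fold by their brightest probes. PSAT1, which carries out the transamination step of serine synthesis, read 8415 with control siRNA and 4398 with periostin siRNA (ratio -0.94), and its dimmer probe 580 and 283 (ratio -1.04). SHMT2, the mitochondrial enzyme that turns serine into glycine, read 11396 and 6765 (ratio -0.75). PHGDH, which opens serine synthesis, read 4228 and 2843 (ratio -0.57). All 3 ratios lay below 0 by more than 2 times the spot error of 0.20.

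The last 2 ATF4 targets act in feedback and growth control. PPP1R15A (GADD34), which brings a phosphatase to eIF2α and so ends the translation block, read 885 with control siRNA and 550 with periostin siRNA (ratio -0.69, spot error 0.20). DDIT4 (REDD1), an inhibitor of the kinase mTORC1, read 3694 and 2959 as means over 10 spots (ratio -0.32, SD 0.05). DDIT4 had the ratio nearest to 0 among the ATF4 targets.

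The promoters of the members were searched for 3 short motifs that are textbook sites of these responses, to show the sequences behind the grouping. RefSeq promoters (build GRCh38.p14, 250 bases before to 50 bases after a start site) were at hand for 32 of the 36 members. PDIA3, DERL1, DERL3 and SHMT2 had no entry. The motif TGATGNAA, with N any base, is the core of the C/EBP-ATF response element (CARE) that ATF4 dimers bind. Searched on both strands, it was present in 3.62% of the 35116 promoters, or in 4.46% of genes with a promoter, and in 4 of the 32 members (12.5%), ASNS, CHAC1, ATF3 and HERPUD1. Of the 7 ATF4 targets among the searched members 5 were without it, and 13 of the 76 other pathway genes searched (17.1%) held it. The members were named in part as genes of the ATF4 response, so that the count is no independent finding. The 4 sites are shown with 10 flanking bases on each side, read 5′ to 3′ along the strand that carries the motif, and the capitals mark its fixed letters. They lie at chr7:97872459-97872486, minus strand, for ASNS; at chr15:40953252-40953279, minus strand, for CHAC1; at chr1:212565206-212565233, plus strand, for ATF3; and at chr16:56931956-56931983, minus strand, for HERPUD1.
ASNS: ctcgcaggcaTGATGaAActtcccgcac
CHAC1: ctggcaggagTGATGcAAcggcagggga
ATF3: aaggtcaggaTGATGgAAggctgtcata
HERPUD1: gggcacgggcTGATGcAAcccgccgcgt

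The ASNS site ended 60 bases before the start site, and those of CHAC1, ATF3 and HERPUD1 ended 201, 183 and 168 bases before it. The ratios of these genes ran from -2.20 for CHAC1 and -2.01 for ASNS, through -0.78 for ATF3, to 0.02 for HERPUD1, which changed sign with the scaling. The median of these 4 was -1.40. The 28 searched members without the motif had a median of -0.54 and spread from -1.84 to 0.31, so that both sets overlapped. The difference was not tested. A match describes the letters in this window and no binding was measured.

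Among the chaperones MANF and HSP90B1 had the lowest ratios. MANF, a secreted factor that stays with BiP in the ER and is released when ER calcium falls, read 11737 with control siRNA and 3274 with periostin siRNA, 3.59-fold lower (ratio -1.84, spot error 0.20). HSP90B1 (GRP94), the HSP90 chaperone of the ER, read 61787 and 25867, 2.39-fold lower (ratio -1.26, spot error 0.20). A dimmer HSP90B1 probe read 2518 and 891 (ratio -1.50). These were the only 2 chaperones whose ratio passed 2-fold by more than the spot error.

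**Figure D3:**
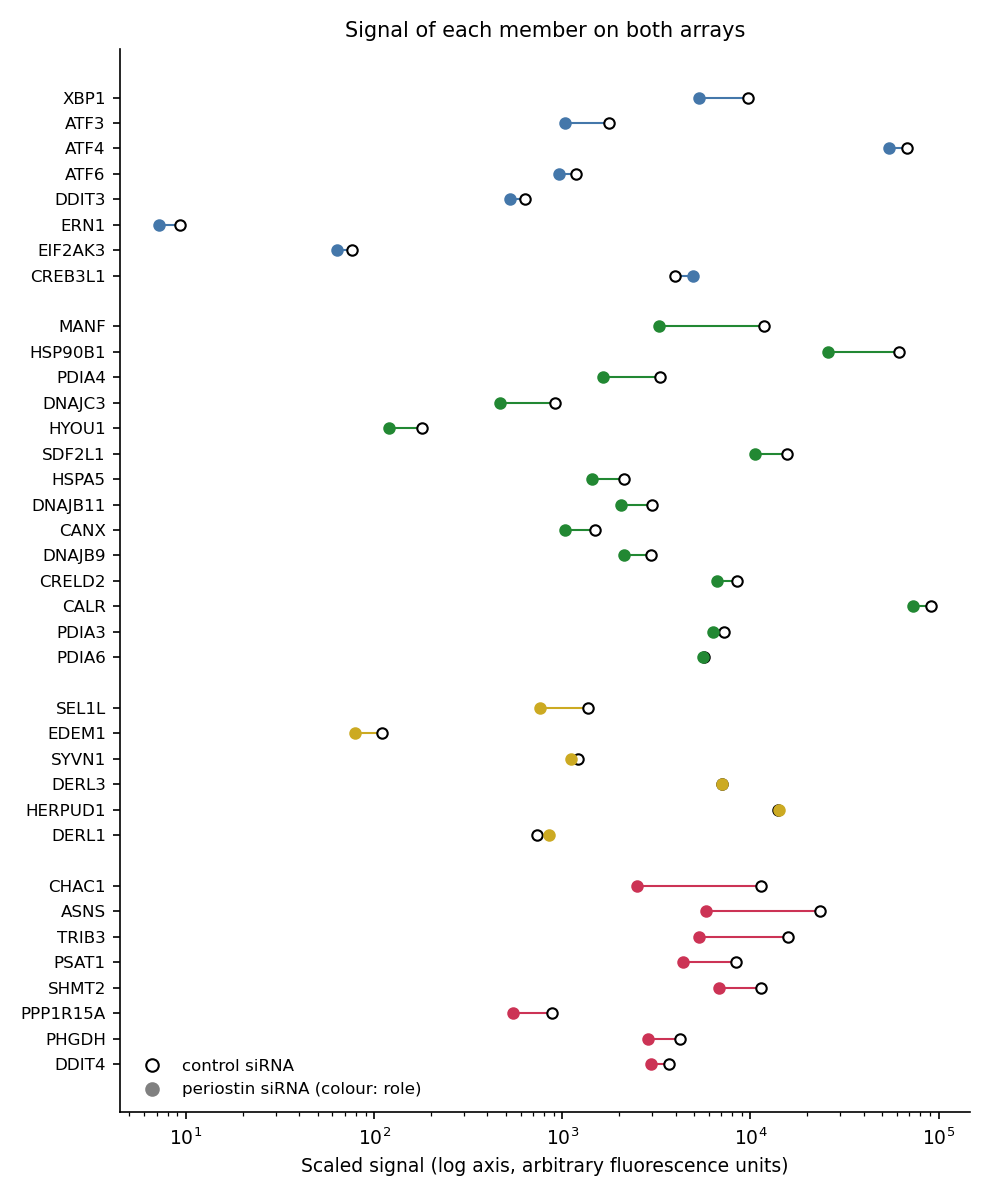
Scaled signal (x axis, log scale, arbitrary fluorescence units) of each of the 36 members (y axis) with control siRNA (open circles) and periostin siRNA (filled circles, coloured by role), each from 1 array. The filled circle lies to the left of the open one for 33 members, and the gaps of PDIA6, DERL3 and HERPUD1, which change sign with the scaling, cannot be seen at this scale.

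BiP and its closest partners among the members were lower. HSPA5 (BiP), the HSP70 chaperone that also holds the sensors inactive, read 2125 with control siRNA and 1440 with periostin siRNA (ratio -0.56, spot error 0.20). HYOU1 (GRP170), its nucleotide exchange factor, read 181 and 120 (ratio -0.59, spot error 0.21). SDF2L1, which works with BiP and its J-domain partners, read 15670 and 10522 (ratio -0.57). These 3 ratios differed from one another by far less than the spot error. SIL1, another exchange factor of BiP and not a member, read 972 and 1290 (ratio 0.41).

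The J-domain co-chaperones of BiP spread more. DNAJC3 (p58IPK), which also inhibits PERK, read 911 with control siRNA and 464 with periostin siRNA (ratio -0.97, spot error 0.20). DNAJB11 (ERdj3) read 2993 and 2045 (ratio -0.55). DNAJB9 (ERdj4), which passes clients to degradation and represses IRE1, read 2972 and 2134 (ratio -0.48). All 3 lay below 0 by more than 2 times the spot error.

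The protein disulfide isomerases, which form and shuffle disulfide bonds, differed among themselves. PDIA4 (ERp72) read 3293 with control siRNA and 1640 with periostin siRNA (ratio -1.01, spot error 0.20), at the 2-fold line. PDIA3 (ERp57), the partner of the lectin chaperones, read 7245 and 6358 (ratio -0.19), while its dimmer probe read 443 and 480 (ratio 0.12). PDIA6 read 5645 and 5618 (ratio -0.01), and its sign changed with the scaling. The PDIA3 and PDIA6 ratios were within the spot error of 0.20.

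The lectin chaperones and CRELD2 were lower by less than 1.5-fold. Calnexin (CANX), the membrane-bound lectin chaperone, read 1498 with control siRNA and 1039 with periostin siRNA (ratio -0.53), and 354 and 279 by a dimmer probe (ratio -0.34). Calreticulin (CALR), its soluble counterpart, read 91297 and 72885 (ratio -0.32). CRELD2, an ER stress-induced protein with disulfide isomerase activity, read 8431 and 6666 (ratio -0.34). The ratios of CALR and CRELD2 exceeded their spot error of 0.20 but not 2 times that error.

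The ER stress response element (ERSE), CCAAT followed by 9 bases of any kind and CCACG, is the classical site of ATF6 with the CCAAT-binding factor NF-Y in chaperone promoters. On both strands it was present in 27 of the 35116 promoters (0.0769%), or in 0.0916% of genes, in 1 of the 76 other pathway genes searched and in 7 of the 32 members (21.9%), namely HSPA5, HSP90B1, CALR, CANX, PDIA6, CRELD2 and XBP1. The members are named for the response that this element is known for, so that the count is no independent finding. The sites of 6 of these genes, all but CANX, are shown so that the ratios can be read beside the element. Each has 10 flanking bases on each side, with the CCAAT and CCACG boxes in capitals. The CANX site, at chr5:179698768-179698806, plus strand, is not printed. HSP90B1 held 2 such sites, at chr12:103930206-103930244, plus strand, and at chr12:103930311-103930349, minus strand. The others lie at chr9:125241381-125241419, minus strand, for HSPA5; at chr19:12938374-12938412, minus strand, for CALR; at chr22:49918544-49918582, minus strand, for CRELD2; at chr2:10812843-10812881, minus strand, for PDIA6; and at chr22:28800593-28800631, minus strand, for XBP1 (GRCh38.p14).
HSP90B1 upstream site: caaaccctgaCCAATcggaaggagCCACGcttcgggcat
HSP90B1 downstream site: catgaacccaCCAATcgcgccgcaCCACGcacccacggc
HSPA5: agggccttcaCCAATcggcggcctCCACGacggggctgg
CALR: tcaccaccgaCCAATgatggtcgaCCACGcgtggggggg
CRELD2: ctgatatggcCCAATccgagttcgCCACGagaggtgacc
PDIA6: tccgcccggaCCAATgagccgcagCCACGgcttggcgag
XBP1: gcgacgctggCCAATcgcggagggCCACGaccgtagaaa

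With the element in their promoters, the 7 members had ratios from -1.26 for HSP90B1 to -0.01 for PDIA6, with a median of -0.53. The 25 members whose promoter window was searched without a match had a median of -0.57 and ran from -2.20 to 0.31. HSP90B1 and PDIA6, at either end of the range, thus carried the same boxes with different spacers and flanks. The related unfolded protein response element, searched as TGACGTGG on both strands, was found in 0.729% of all promoters, or 0.927% of genes, in 7 of the 76 other pathway genes searched and in 1 of the 32 members, HYOU1, at chr11:119057376-119057403, minus strand.
HYOU1: gctggccccgTGACGTGGtccaatccca

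The sensors had ratios close to 0 or dim signals. EIF2AK3 (PERK) read 75.8 with control siRNA and 63.7 with periostin siRNA (ratio -0.25, spot error 0.21). ATF6 read 1175 and 959 (ratio -0.29, spot error 0.20). ERN1 (IRE1) was well above background with control siRNA alone, at 9.31, and not with periostin siRNA, at 7.18. This gave a bound of 1.20-fold lower (ratio -0.26), which lay within its spot error of 0.47. ERN1 is counted among the 33 members below 0 by this bound. None of the 3 reached 1.5-fold, and the ERN1 signal lies close to the limit of detection.

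The factors downstream of the sensors differed among themselves too. XBP1, the substrate of IRE1, read 9715 with control siRNA and 5353 with periostin siRNA as means over 10 spots (ratio -0.86, SD 0.04), 1.81-fold lower. ATF4 itself read 67912 and 54496 (ratio -0.32, spot error 0.20), a small difference beside those of CHAC1, ASNS and TRIB3. DDIT3 (CHOP), the pro-apoptotic factor that ATF4 induces, read 634 and 528 (ratio -0.26, spot error 0.20). The ATF4 and DDIT3 ratios exceeded their spot error but not 2 times that error.

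ATF3, a stress-induced repressor, and CREB3L1 (OASIS), a membrane-bound factor that supports collagen production, complete the factors. ATF3 had 4 probes well above background. The brightest read 1772 with control siRNA and 1031 with periostin siRNA (ratio -0.78, spot error 0.20), and the others gave ratios of -0.85, -0.50 and 0.20. The mean over the ATF3 probes was -0.49. CREB3L1 read 3987 and 4944 (ratio 0.31, spot error 0.20) and was the member with the highest ratio.

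Of the ER-associated degradation genes, SEL1L alone was lower by more than 1.5-fold. SEL1L, the scaffold of the degradation complex, read 1367 with control siRNA and 757 with periostin siRNA (ratio -0.85, spot error 0.20), and its dimmer probes gave -0.53 and -0.49. SYVN1 (HRD1), the ubiquitin ligase that SEL1L holds, read 1214 and 1114 (ratio -0.12). EDEM1, a lectin that marks misfolded glycoproteins for removal, read 110 and 79.5 (ratio -0.46, spot error 0.21).

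The remaining degradation genes were at or above their control level. HERPUD1, an ER membrane protein that recruits the ligase complex, read 13933 with control siRNA and 14129 with periostin siRNA (ratio 0.02), and its sign changed with the scaling. DERL3, a derlin of the ER membrane, read 7054 and 7040 (ratio -0.0027, spot error 0.20), and its sign changed with the scaling as well. A dimmer DERL3 probe, at 6.69 and 4.55, was well above background on neither array. DERL1, another derlin, read 735 and 852 (ratio 0.21, spot error 0.20). The HERPUD1 and DERL3 ratios lay within the spot error of 0, and that of DERL1 just beyond it.

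A list of 89 other genes of the same pathways, sorted into the same 4 roles, was read in the same way, and 85 of them had a ratio. This list too was chosen with earlier results of these data known. It was read on the same arrays, so it is no independent check of the members. TXNDC11, ERO1A and ERP44 were not matched to a probe, and FGF21 was below background on both arrays. Of the 85, 55 had a ratio below 0, against 45.5% of all measured genes. By more than 1.5-fold 26 were lower and 5 higher (13.7% and 17.6% of all genes), and by more than 2-fold 11 were lower and 1 higher (6.42% and 7.97%). The median was -0.25. By role the medians were -0.62 for 29 ATF4 targets, -0.20 for 20 chaperones and folding enzymes, -0.10 for 18 degradation genes and -0.07 for 18 sensors and factors.

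**Figure D4:**
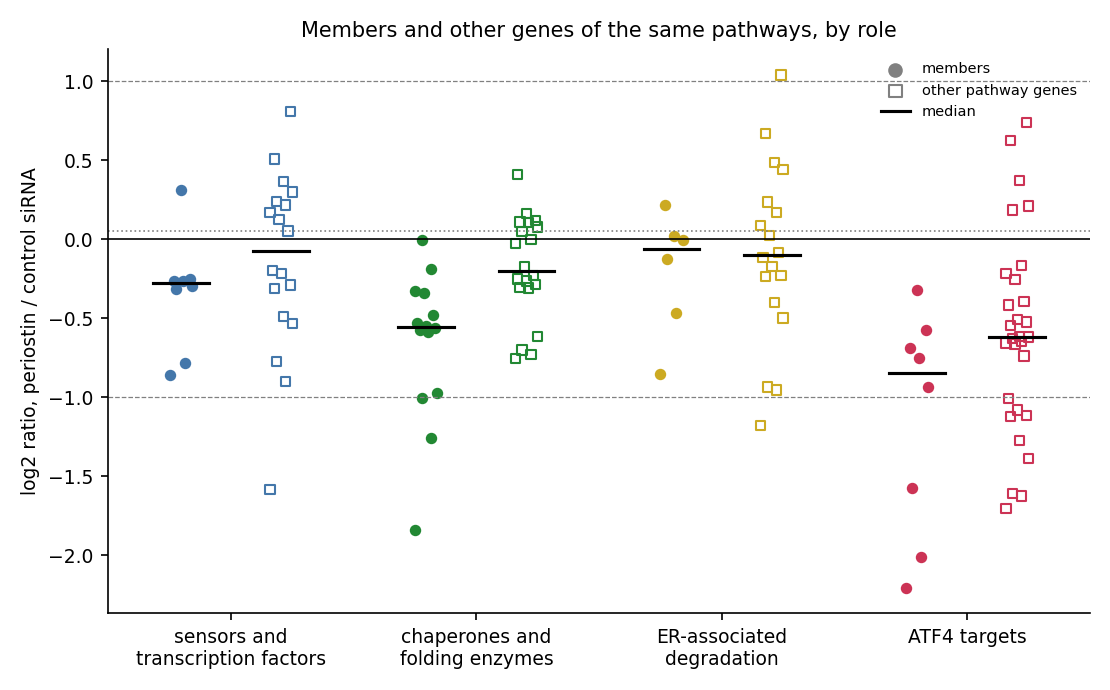
Log2 ratio of periostin siRNA over control siRNA (y axis) of the 36 members (filled circles) and of 85 other genes of the same pathways (open squares), by role (x axis); black bars are medians, the dotted line is the median of all measured genes and dashed lines mark 2-fold. The ATF4 targets have the lowest median in both sets, -0.84 and -0.62, and the medians of the degradation genes, -0.06 and -0.10, lie near 0. Both sets were read on the same arrays.

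Of the 29 other ATF4 targets 9 were lower by more than 2-fold, against 6.42% of all measured genes, and 24 lay below 0, against 45.5%. The lowest was ALDH1L2, a mitochondrial folate enzyme, which read 361 with control siRNA and 111 with periostin siRNA (ratio -1.70, spot error 0.21). MTHFD2, another mitochondrial folate enzyme, read 3708 and 1217 (ratio -1.61, SD 0.06 over 10 spots). The enzymes that make cysteine from homocysteine followed, CBS with 19853 and 8226 (ratio -1.27) and CTH with 342 and 162 (ratio -1.08).

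Amino acid transporters and aminoacyl-tRNA synthetases made up 7 and 8 of these 29 genes, grouped here after their values were seen. By their brightest probes 4 and 1 of them were lower by more than 2-fold, against 6.42% of all measured genes. All 7 transporters had a ratio below 0, against 45.5% of all measured genes, with a median of -1.01. SLC7A11, the cystine importer, read 11371 with control siRNA and 3689 with periostin siRNA (ratio -1.62), and SLC7A1, the importer of cationic amino acids, 370 and 142 (ratio -1.39). SLC7A5 (LAT1) and its partner SLC3A2, which together import large neutral amino acids, had ratios of -1.11 and -1.01. By their brightest probes the 8 synthetases all lay below 0, against the same 45.5%, with a median of -0.64. Since both groups were formed after the values were seen, their counts are no independent finding. They ran from -1.12 for EPRS1, which charges glutamate and proline, to -0.17 for WARS1, which charges tryptophan. Dimmer probes gave -1.45 for SARS1, against -0.63 by its brightest, and -0.40 for MARS1, against -0.62.

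Not every ATF4 target was lower. STC2 (stanniocalcin 2) read 795 with control siRNA and 1326 with periostin siRNA (ratio 0.74, spot error 0.20), and NUPR1, a stress-induced nuclear protein, read 36806 and 56816 (ratio 0.63). SESN2 (sestrin 2), GPT2 and PSPH had ratios of 0.37, 0.21 and 0.19. These 5 were the only genes sorted as ATF4 targets in both lists with a ratio above 0, out of 37 with a ratio. Each gene was sorted into a single role, so genes such as DDIT3, which ATF4 also induces, are not in this count. Genes of other roles with TGATGNAA in the promoter went both ways. CEBPG, ATF3, PPP1R15B and CREB3L2 had ratios of -0.90, -0.78, -0.77 and -0.22. JDP2 had 0.24 (SD 0.05 over 10 spots) and HERPUD1 0.02, within its spot error.

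Outside the ATF4 targets, 3 other pathway genes passed 2-fold by their brightest probe. CEBPB, a dimer partner of ATF4, read 20095 with control siRNA and 6706 with periostin siRNA (ratio -1.58, SD 0.03 over 10 spots). ERLEC1, a lectin of the degradation pathway, read 4732 and 2094 (ratio -1.18), but a separate probe read 2428 and 2400 (ratio -0.02). EDEM2, which starts the trimming of glycoproteins for degradation, read 820 and 1685 (ratio 1.04, spot error 0.20) and was the gene with the highest ratio of the list. DNAJC10, a disulfide reductase of the ER, was within 2-fold by its brightest probe (3029 and 1865, ratio -0.70) and past it by a separate probe (1802 and 545, ratio -1.73). The relatives of EDEM2 went the other way, EDEM3 with 2996 and 1547 (ratio -0.95) and the member EDEM1 with -0.46.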

How the data were processed

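Per the labels, RNA of MRC-5 cells with control siRNA or periostin siRNA was measured on 1 array each. The authors deposited a scanner file per array with intensity values that Agilent Feature Extraction had background-subtracted, unscaled between arrays (version 11.5.1.1 in the file header, 12.0.3.1 in the submitters' processing notes), with its flags for signal above background and for outlier spots. They also deposited a normalized intensity table, equal to the scanner intensity times 1 constant per array (3.65 and 3.54), used here as an alternative. The array is annotated on hg19, and RefSeq (GRCh38.p14) served for names and promoters only. It named 65.1% of 58717 non-control spots.

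Here log2 processed signals were scaled to the 75th percentile of each array (372 and 383 before scaling). Spots of a probe were averaged, and the brightest probe stood for a gene. A probe well above background on 1 array alone gave a bound, set against the dimmer array's own signal or its lowest signal of a detected spot, whichever was higher; a probe detected on neither array gave no ratio. Of the spots, 58.0% and 58.9% were well above background. All 36 members were named, with every probe well above background where probes differed in sign or by over 1 log2, and other pathway genes where past 2-fold; the remaining other pathway genes and dimmer probes were named after their values were seen. Members and lists were chosen with earlier results of these data known. No test was run, since each group held 1 array. Steps were tested on simulated data. Protein sequences were not analysed here. Python 3.11.15 with numpy 2.4.6, pandas 2.3.3 and matplotlib 3.10.9, and R 4.3.3 with limma 3.58.1 were used.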

Additional observations from a re-analysis of the deposited data

How the results depend on the processing

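The members' values were recomputed under 10 other settings of background correction, scaling, probe choice and spot filter. Of 358 single member values, 353 stayed within the spot error of the reported one. The exceptions were ATF3 and SEL1L as means over their probes (-0.49 and -0.62), XBP1 unscaled (-0.82) and scaled on the median (-0.99), and DDIT4 scaled on the median (-0.45). The sign changed for 3 members, DERL3 and PDIA6 (unscaled and under normexp background correction) and HERPUD1 (scaled on the median and under loess), and 30 members with a value in every setting stayed below 0 in all of them, as did ERN1 in the 8 that gave it a value. Scaling on the median moved the median of all genes from 0.06 to -0.07 and the members' median to -0.67. Over all settings that median ran from -0.67 to -0.47, that of the ATF4 targets from -0.97 to -0.80, of the chaperones from -0.68 to -0.48, of the sensors and factors from -0.41 to -0.24 and of the degradation genes from -0.19 to -0.02. Of the 6 members lower by more than 2-fold, 5 stayed so in every setting. Their count ran from 5 to 8, and the count past 1.5-fold from 13 to 21. The 8 and the 21 came from scaling on the median, under which the balance over all genes also turned, with 1261 lower and 1056 higher by more than 2-fold and 2910 lower and 2179 higher by more than 1.5-fold. At a threshold of 3-fold 3 members were lower, and at 4-fold 2; over all genes, 441 and 274 were lower and 541 and 278 higher. Normexp background correction with an offset of 50, which by construction shrinks the ratios of dim probes, gave 551 genes lower and 528 higher by more than 2-fold, 1390 lower and 1578 higher by more than 1.5-fold, and a POSTN ratio of -2.99. No paired analysis was possible because there was 1 array a group, and for the same reason no array could be left out. Both arrays shared 1 slide, so that no slide term could be fitted. Signal over background limits ERN1, which had only a bound.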
